A study of Mus musculus with 4 samples.

Results

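The genes described here are the 8 that set and erase 5-methylcytosine in mouse cells, namely Dnmt1, Dnmt3a, Dnmt3b, Dnmt3l, Uhrf1, Tet1, Tet2 and Tet3. They were chosen by name, as the array features whose annotation holds exactly 1 gene symbol that is 1 of these, and they make up 8 of 19083 genes and 15 of 33649 features with a single symbol. The study concerned neurogenesis and compared mouse embryonic stem (ES) cells that make a hairpin RNA against exon 1 of Fmr1 (shFmr1), the gene of the RNA-binding protein FMRP, with ES cells that make a random hairpin (shCT). Cells of both groups had received their hairpin by a lentivirus that also makes GFP, were sorted, and were kept as mixed populations rather than clones. The name of the ES line and its culture medium were not stated in the sources used here. The 4 replicates, on 1 array each, held an shFmr1 RNA and an shCT RNA in opposite dyes, with shFmr1 in Cy5 on replicates 1 and 3 and in Cy3 on replicates 2 and 4.

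DNA methylation in mammals is laid down by the de novo enzymes DNMT3A and DNMT3B, which DNMT3L, a relative with no catalytic activity of its own, stimulates. It is copied to the new strand at replication by DNMT1, which UHRF1 brings to hemimethylated CpG sites, and it is oxidised to 5-hydroxymethylcytosine and beyond by TET1, TET2 and TET3. Mouse ES cells express Dnmt3b, Dnmt3l, Tet1 and Tet2 strongly, and Dnmt3a and Dnmt3b rise when they leave the naive state for the epiblast-like state.

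Upstream sequence is shown for Dnmt3b and Dnmt3l, whose ratios moved together across the arrays, and for Tet1, whose ratios moved the other way with the dyes. Each run ends 1 base before the outermost start of the gene in RefSeq's gene table, which lies 38 bases upstream of the start in its promoter table for Dnmt3b and 145 bases upstream for Tet1, and those bases are not printed. A run is written 5′ to 3′ on the gene's strand, and comes from RefSeq on GRCm38.p6. Capitals mark the GC box GGGCGG, the letters bound by SP1-type factors, searched on both strands with overlaps counted. The runs lie at chr2:153649199-153649410 on the plus strand for Dnmt3b, chr10:78042037-78042286 on the plus strand for Dnmt3l and chr10:62887470-62887574 on the minus strand for Tet1.
Dnmt3b: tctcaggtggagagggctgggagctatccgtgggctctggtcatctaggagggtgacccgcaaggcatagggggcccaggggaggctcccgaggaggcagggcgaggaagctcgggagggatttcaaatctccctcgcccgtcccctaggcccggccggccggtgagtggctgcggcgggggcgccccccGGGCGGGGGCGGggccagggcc
Dnmt3l: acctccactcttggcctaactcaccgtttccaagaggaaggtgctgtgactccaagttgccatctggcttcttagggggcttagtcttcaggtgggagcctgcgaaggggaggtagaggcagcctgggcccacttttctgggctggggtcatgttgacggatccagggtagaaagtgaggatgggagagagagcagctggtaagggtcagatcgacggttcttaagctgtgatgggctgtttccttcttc
Tet1: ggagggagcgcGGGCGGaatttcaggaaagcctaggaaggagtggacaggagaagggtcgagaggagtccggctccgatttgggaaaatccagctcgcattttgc

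The Dnmt3b run of 212 bases held 2 GC boxes and 16 CpG sites, and its whole window of 250 bases 3 and 21. The Dnmt3l run of 250 bases held 0 GC boxes and 5 CpG sites. Dnmt3l has 3 annotated starts, and the 250 bases before its second start held 2 GC boxes and 4 CpG sites. The Tet1 run of 105 bases held 1 GC box and 7 CpG sites, and its whole window of 250 bases 1 and 15. Over 32851 promoter windows of 250 bases, 32.7% held a GC box and the median was 6 CpG sites. These counts describe the letters alone, and the array features do not tell which start was used.

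Values are the authors' deposited log ratios, 1 per feature and array, averaged over the features of a gene and read as log2 of shFmr1 over shCT. The log base and the direction were not stated in the sources used here. Fmr1 read -0.86, -1.65, -1.34 and -1.61 on replicates 1 to 4, a mean of -1.37 ± 0.36 (SD, n = 4), 1 sign throughout although the dyes alternate, so the ratio is likely that of shFmr1 to shCT on each array. With the other direction every sign below would turn, and with natural logs every fold would be larger. Each array has a mean of 0 over its 45214 features, and the SDs of the features ran from 0.319 to 0.414. Across genes, which are not independent replicates, any pair of arrays correlated weakly, with r from -0.0532 to 0.0633. The pairs of the same dye orientation were the positive ones, at 0.0633 for replicates 1 and 3 and 0.0438 for replicates 2 and 4. All pairs of opposite orientation were negative, from -0.0532 to -0.0226. The values hold no signal level, so whether a gene was above background, and whether ES cell or other markers were present, was not tested. Nothing in the labels says that the replicates were separate cultures, so the spread given may be technical.

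Dnmt3b and Dnmt3l gave the lowest mean ratios of the 8 genes, but only through the arrays with shFmr1 in Cy5. They encode a de novo methyltransferase and the cofactor that stimulates both it and DNMT3A. No gene of the 8 passed limma's test after adjustment over all genes. The other 6 genes had mean ratios between -0.05 and 0.08. No gene of the 8 kept 1 sign on all 4 arrays, where 11.3% of all genes did. Fmr1 itself, at 38.8% of the shCT level and rank 2 by p-value, had a limma adjusted p of 0.156. A gene that misses the threshold on these 4 arrays is therefore not shown to be unchanged.

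Dnmt3b, measured by 1 feature, read -0.76 on replicate 1, 0.08 on replicate 2, -1.27 on replicate 3 and 0.33 on replicate 4. The arrays with shFmr1 in Cy5 were both low, those with shFmr1 in Cy3 were both slightly above 0, and the orientations did not overlap. The mean was -0.41 ± 0.74 (SD, n = 4), which is 75.5% of the shCT level, and the limma adjusted p was 0.973. The 95% confidence interval of that fit, which has a dye term, ran from -0.69 to -0.12. This interval is not adjusted for the number of genes, and it rests on the spread within each orientation, not on that SD. Without the dye term the unadjusted limma p was 0.152. The exact two-sided sign-flip permutation test gave p = 0.5, where the smallest p that 4 arrays allow is 2 of 16 sign patterns and cannot reach 0.05. Among all genes Dnmt3b stood in the lowest 1.04% on replicate 1 and the lowest 0.624% on replicate 3, but at the 67.3 and 91.1 percentiles on replicates 2 and 4.

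Dnmt3l, also measured by 1 feature, read -0.93, 0.19, -0.76 and 0.17 on replicates 1 to 4. Its values followed those of Dnmt3b, with both Cy5 arrays low and both Cy3 arrays a little above 0. The mean was -0.33 ± 0.60 (SD, n = 4), 79.3% of the shCT level, with a limma adjusted p of 0.973 and a 95% confidence interval from -0.54 to -0.12. As for Dnmt3b, the interval is unadjusted and rests on the spread within each orientation. Without the dye term the unadjusted limma p was 0.155. The exact sign-flip permutation test of Dnmt3l also gave p = 0.5. Over 19082 other genes ranked by the Euclidean distance of their 4 values to those of Dnmt3b, Dnmt3l came at rank 8, with a distance of 0.571.

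Dnmt3a, which encodes the other active de novo enzyme, stayed near 0. It read 0.12, 0.11, -0.20 and -0.004 on replicates 1 to 4, a mean of 0.005 ± 0.149 (SD, n = 4) with a 95% confidence interval from -0.23 to 0.24. A change of more than 1.18-fold in either direction lay outside that interval. Its 3 features did not move together, and their means ran from -0.12 to 0.09. The sign of the mean turned with the median over features (-0.0157) and without replicate 1 or replicate 2, so no direction is given for Dnmt3a. ES cells use mainly a short Dnmt3a transcript from an internal start, and the annotation of the features does not separate it from the long one.

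On the same array, Dnmt3b lay below Dnmt3a by 0.88 on replicate 1, by 0.03 on replicate 2 and by 1.06 on replicate 3, and above it by 0.33 on replicate 4. The mean difference was -0.41 ± 0.67 (SD, n = 4), with p = 0.375 in the exact two-sided sign-flip permutation test. Dnmt3l minus Dnmt3a averaged -0.34 ± 0.58 (SD, n = 4), with p = 0.5 in the same exact test and 2 arrays below 0. These were the 2 differences computed, and both had a Benjamini-Hochberg adjusted p of 0.5 in the exact test, which cannot reach 0.05 with 4 arrays. Both means were smaller in size than the SD of the arrays.

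**Figure D1:**
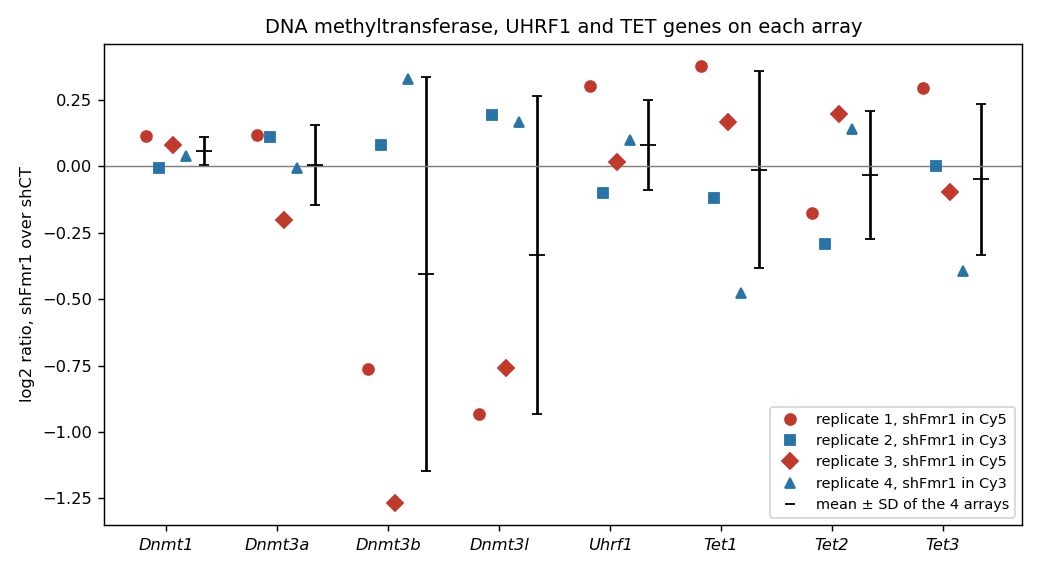
Log2 ratio of shFmr1 over shCT for the 8 genes on each array (red, shFmr1 in Cy5; blue, shFmr1 in Cy3), with the mean ± SD of the 4 arrays in black. Dnmt3b and Dnmt3l read between -1.27 and -0.76 on both red arrays and between 0.08 and 0.33 on both blue ones, while the other 6 genes lie between -0.48 and 0.38 on every array.

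Of the maintenance genes, Dnmt1 varied least between arrays and neither gene passed the test. Dnmt1, the maintenance methyltransferase, read 0.12, -0.006, 0.08 and 0.04 on replicates 1 to 4, a mean of 0.06 ± 0.05 (SD, n = 4) with a limma adjusted p of 0.977. Its 95% confidence interval ran from -0.14 to 0.26, so a rise of more than 1.20-fold or a fall of more than 1.11-fold lay outside it. The SD of Dnmt1 was the smallest of the 8 genes, and its arrays lay within 0.121 of each other.

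Uhrf1, which encodes the reader of hemimethylated CpG sites, read 0.30, -0.10, 0.02 and 0.10. The mean was 0.08 ± 0.17 (SD, n = 4), with a limma adjusted p of 0.977 and a 95% confidence interval from -0.16 to 0.32. Its first feature was above 0 on all 4 arrays (0.30, 0.09, 0.10 and 0.15), and its second averaged -0.001 ± 0.248. Replicate 1 read 0.30 on both features, and the mean was 0.008 without replicate 1 in the fit with a dye term.

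The TET genes had mean ratios just below 0 and wide spreads. Tet1, the TET gene most typical of ES cells, read 0.38, -0.12, 0.17 and -0.48 on replicates 1 to 4. Both arrays with shFmr1 in Cy5 were above 0 and both with shFmr1 in Cy3 below, the reverse of Dnmt3b and Dnmt3l. The mean was -0.01 ± 0.37 (SD, n = 4), with a limma adjusted p of 0.997 and a 95% confidence interval from -0.26 to 0.24. The sign of the Tet1 mean depended on which array was left out, and it was 0.142 without replicate 4 and no dye term.

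Tet2, whose loss is best known in blood cells, read -0.18, -0.29, 0.20 and 0.14, a mean of -0.03 ± 0.24 (SD, n = 4). Its values did not follow the dyes. The 3 features of Tet2 averaged -0.18 ± 0.47, -0.03 ± 0.41 and 0.11 ± 0.09, and the sign of the gene mean turned with the median over features (0.0213). The third feature was the most even, between -0.006 and 0.19 on the 4 arrays.

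Tet3, the TET gene of the oocyte and of neural tissue, read 0.30, 0.0007, -0.10 and -0.40, a mean of -0.05 ± 0.28 (SD, n = 4). Most of its range came from its second feature, which read 1.02 on replicate 1 and -0.89 on replicate 4. The first feature of Tet3 lay between -0.28 and 0.38 and the third between -0.53 and 0.04. The limma adjusted p was 0.989 for Tet2 and 0.984 for Tet3, with 95% confidence intervals from -0.32 to 0.25 and from -0.33 to 0.23.

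**Figure D2:**
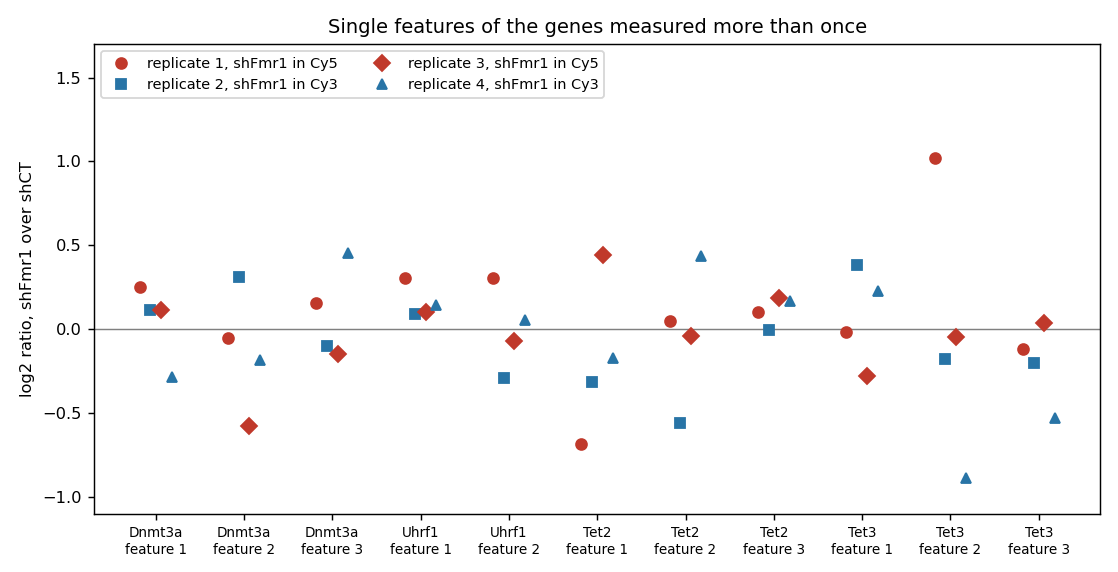
Log2 ratio of shFmr1 over shCT for each feature of the 4 genes measured by more than 1 feature, on each array; features are numbered in the order of their array numbers. The second Tet3 feature spans -0.89 to 1.02, and each of the 4 genes has features on both sides of 0 on at least 1 array.

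The values of Dnmt3b, Dnmt3l and Tet1 split by dye orientation. When the ratios were read as Cy5 over Cy3, Dnmt3b was -0.76, -0.08, -1.27 and -0.33 on replicates 1 to 4 and Dnmt3l was -0.93, -0.19, -0.76 and -0.17, below 0 on every array. Tet1 read this way was 0.38, 0.12, 0.17 and 0.48, above 0 on every array. These 3 of the 8 genes thus kept 1 sign in Cy5 over Cy3, where 16.9% of all genes did. In Dnmt1, Dnmt3b, Dnmt3l and Tet1, 4 of the 8, the values of the orientations did not overlap, against 39.2% of all genes.

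In the fit, the dye coefficient of Dnmt3b was -0.61 ± 0.12 (SE) and that of Dnmt3l -0.51 ± 0.09 (SE), larger in size than their shFmr1 coefficients of -0.41 and -0.33. By p-value they stood at ranks 19 and 10 of 19083 genes for the dye effect, and at ranks 167 and 102 for shFmr1. The dye coefficient of Tet1 was 0.29 ± 0.10 (SE), at rank 713. These dye effects did not pass adjustment over all genes (limma adjusted p = 0.730 for each of the 3). Without the adjustment, 3 of the 8 dye effects had a limma p under 0.05, against 6.49% of all genes, and 0% of all genes passed with it.

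For shFmr1, limma called 0 of the 8 genes at an adjusted p of 0.05, and 0% of all genes. Without adjustment, 2 of the 8 had a limma p under 0.05 on the lower side, Dnmt3b and Dnmt3l, against 2.05% of all genes. On the higher side 0 of the 8 did, against 1.71% of all genes. Without a dye term in the fit, neither gene had an unadjusted limma p under 0.05, and the count went from 2 to 0. With the dye term kept, Dnmt3b left the count without replicate 2 or replicate 3.

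The orientation gap, the mean of the Cy5 arrays minus that of the Cy3 arrays, was -1.22 for Dnmt3b and -1.03 for Dnmt3l. The arrays of 1 orientation differed from each other by 0.504 and 0.248 for Dnmt3b and by 0.174 and 0.0272 for Dnmt3l. For Tet1 the gap was 0.572, and the arrays of 1 orientation differed by 0.210 (Cy5) and 0.355 (Cy3). Since orientation is shared by replicates 1 and 3 and by replicates 2 and 4, an effect of the dyes and a difference between the cells of these replicates cannot be told apart. Each of the 3 genes rests on a single feature, so no second feature bears on these values.

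**Figure D3:**
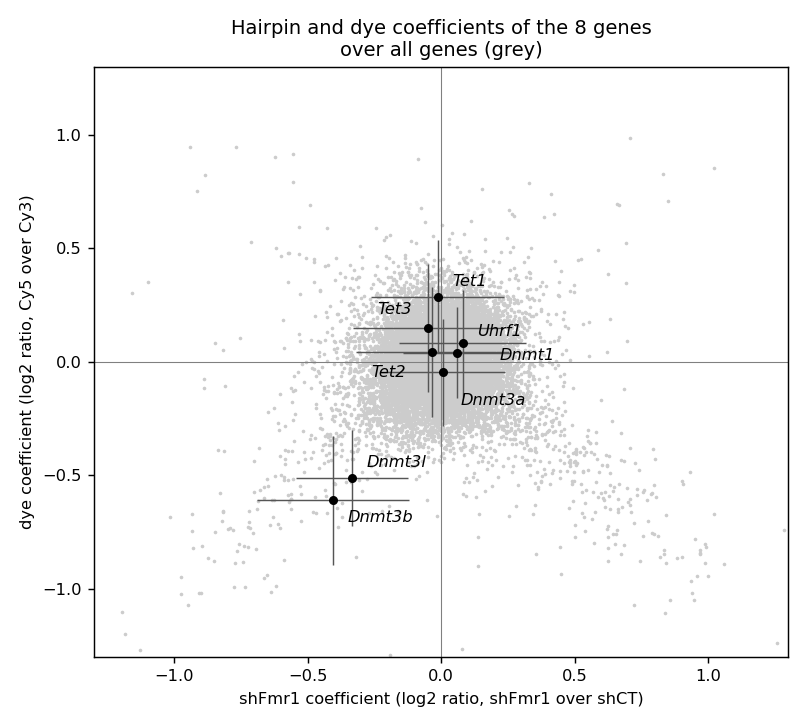
The shFmr1 coefficient (horizontal, log2 ratio of shFmr1 over shCT) against the dye coefficient (vertical, log2 ratio of Cy5 over Cy3) for the 8 genes in black with 95% confidence intervals, and for all genes in grey; 4 genes beyond 1.3 on either axis are not drawn. Dnmt3b and Dnmt3l lie at the lower left, and Tet1 lies above the centre with an shFmr1 coefficient of -0.01.

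Genes were also named by how near their 4 values lay to those of Dnmt3b and Dnmt3l, which had the largest root mean square ratios of the 8. Nearest to Dnmt3b were Snurf (Euclidean distance 0.419), Fam78b (0.433), Snrpn (0.482) and Myc (0.506). Snurf and Snrpn are imprinted and share a transcript, so they are not separate observations. Snrpn read -0.40, -0.007, -1.32 and 0.03 on replicates 1 to 4, and Myc, a growth-promoting transcription factor measured by 12 features, -0.50, 0.20, -1.02 and -0.005. Nearest to Dnmt3l were Wnt10a, a WNT ligand gene (0.264), Mxra8 (0.311), Olfr63, an olfactory receptor gene (0.399), and Fbxo17 (0.406), each with 1 feature. All of these genes were low on replicates 1 and 3 and close to or above 0 on replicates 2 and 4, apart from Snurf, which read -0.26 on replicate 2. That likeness follows from how the genes were picked and is no separate evidence.

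Around the 8 genes, 88 of 98 other listed genes were measured. They came from the partner, reader, demethylation, TET regulator, one-carbon and Dnmt3 regulator lists described below, which include pluripotency factors. Of the 88, 46 were negative, with a median of -0.004 against -0.001 over all genes. None passed limma's adjusted test. Of the 88, 5 were lower and 3 higher at an unadjusted limma p under 0.05, 9.09% in all against 3.77% of all genes. The lower ones were Apobec2, a member of the cytidine deaminase family (-0.45 ± 0.51), the one-carbon enzyme genes Mthfd2 (-0.25 ± 0.17) and Bhmt (-0.25 ± 0.17), Myc (-0.33 ± 0.55) and the POU factor gene Pou3f1 (-0.58 ± 0.61). The higher ones were Nanog (0.33 ± 0.52) and Lin28a (0.26 ± 0.11), a core pluripotency factor and an RNA-binding protein of ES cells, and Gcat (0.22 ± 0.14), an enzyme of threonine breakdown (SD, n = 4 for each). Apobec2, Mthfd2 and Bhmt were below 0 on all 4 arrays, and Lin28a and Gcat were above 0 on all 4. Myc, Pou3f1, Nanog and Lin28a are in the list of regulators of Dnmt3 transcription, where 4 of 13 were under that p (30.8%).

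Partners of the methyltransferases at replication and in chromatin had 10 of 24 negative, a median of 0.03 and 0 genes at an unadjusted limma p under 0.05. The gene with the smallest p on the lower side was Cbx3, a heterochromatin protein (-0.12 ± 0.03), and on the higher side Atrx, a chromatin remodeller (0.17 ± 0.10). Methyl-CpG readers had 5 of 8 negative and a median of -0.08, with Zbtb4 at -0.15 ± 0.23 and Zbtb38 at 0.09 ± 0.48. Demethylation, deaminase and base excision genes had 7 of 17 negative and a median of 0.03, with Gadd45g, a stress-induced gene, at 0.28 ± 0.42. Partners and regulators of the TET enzymes had 6 of 13 negative and a median of 0.003, and Idh1, which makes the cosubstrate 2-oxoglutarate, averaged -0.15 ± 0.09. Methyl donor and one-carbon genes had 11 of 15 negative and a median of -0.05.

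Regulators of Dnmt3 transcription had 7 of 13 negative and a median of -0.02. Nanog read 0.48, 0.13, 0.96 and -0.25 on replicates 1 to 4, higher on both arrays where Dnmt3b and Dnmt3l were low. Pou3f1 read -0.33, -0.64, -1.40 and 0.04, with no such split by orientation. The formative pluripotency list, which holds Dnmt3a and Dnmt3b, had 9 of 14 negative and a median of -0.07, with medians of -0.06, 0.05, -0.26 and 0.02 on replicates 1 to 4. At an unadjusted limma p under 0.05, 4 of the 14 were lower, namely Dnmt3b, Fgf5, Pou3f1 and Pim2, against 2.05% of all genes, and 0 were higher. Its member Fgf5, a growth factor of the epiblast, read -0.15, -1.17, -1.15 and -0.55, a different order of arrays from that of Dnmt3b. Foxd3, the non-member gene of the list with the smallest p on the higher side, read 0.20, 0.74, -1.05 and 0.52, a mean of 0.10 ± 0.80 (SD, n = 4).

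Germline genes that DNA methylation keeps silent had 11 of 18 negative, a median of -0.04 and 0 genes at an unadjusted limma p under 0.05, with Stk31 (-0.23 ± 0.21) and Piwil2 (0.19 ± 0.17) at the smallest p in each direction. On replicates 1 to 4 the median of these germline genes was -0.05, -0.09, 0.10 and -0.02, with no split by orientation like that of Dnmt3b and Dnmt3l. Imprinted genes had 14 of 23 negative and a median of -0.03. At an unadjusted limma p under 0.05, 2 of the 23 were lower, against 2.05% of all genes. They were Snrpn (-0.42 ± 0.63) and Impact (-0.24 ± 0.11), the latter below 0 on all 4 arrays. On the higher side the smallest p was that of Sgce, at 0.17 ± 0.21. S phase genes, whose level follows proliferation as that of Dnmt1 and Uhrf1 does, had 11 of 17 negative, a median of -0.02, and Ccne2 (-0.13 ± 0.39) and Rrm2 (0.10 ± 0.16) at the smallest p in each direction.

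**Figure D4:**
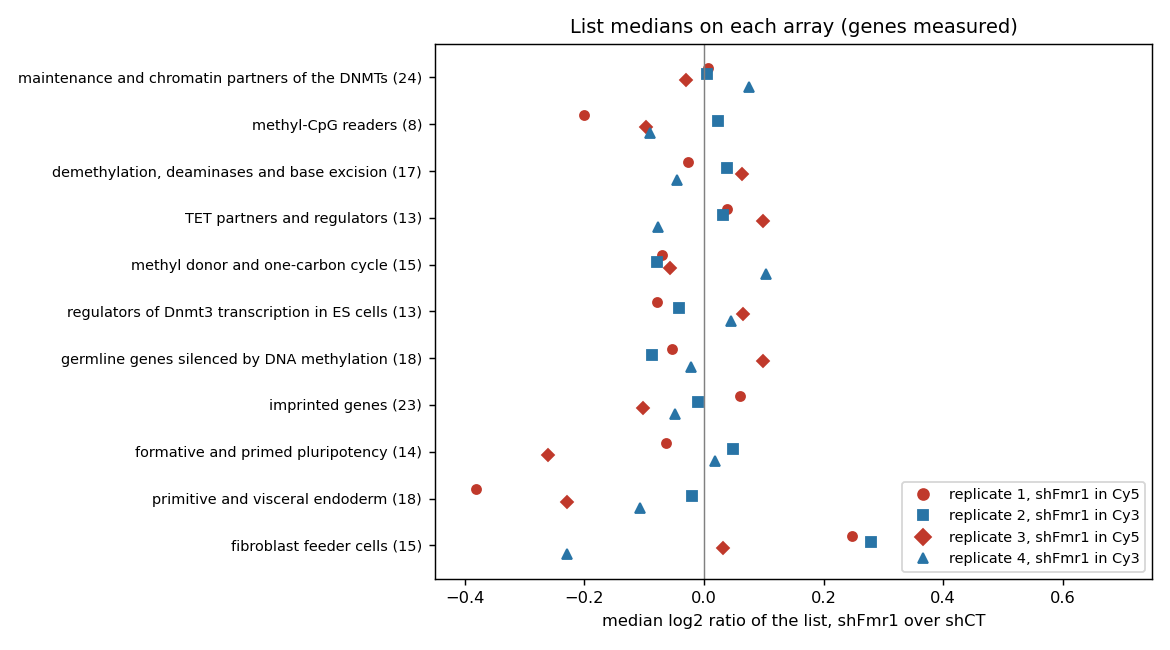
Median log2 ratio of shFmr1 over shCT of each gene list on each array, with the number of genes measured in brackets (red, shFmr1 in Cy5; blue, shFmr1 in Cy3). The endoderm list has its own lowest medians on the red arrays (-0.38 and -0.23), as do the methyl-CpG reader and formative lists. The germline list lies between -0.09 and 0.10.

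Markers of primitive and visceral endoderm, lineages that ES cultures can also form, shared part of the array pattern of Dnmt3b and Dnmt3l. Such a split was not particular to this list, as given below. Of 18 markers measured, 15 were negative, and the list medians were -0.38, -0.02, -0.23 and -0.11 on replicates 1 to 4. At an unadjusted limma p under 0.05, 7 of the 18 were lower, against 2.05% of all genes, and 0 higher, and 0 passed the adjusted test. The endoderm factor Gata6 read -0.75, 0.04, -0.44 and 0.01, and Cubn, an endocytic receptor, -2.37, -0.39, -1.03 and -0.26. Ttr, a thyroid hormone carrier and the marker with the smallest p on the higher side, read 0.25, 0.17, -0.01 and -0.09, without that pattern. Their part in the Dnmt3b and Dnmt3l ratios was not tested, and in such bulk RNA fewer cells of a type and less RNA per cell cannot be told apart. ES cell markers had list medians of -0.08, -0.04, 0.09 and 0.002, with 7 of 13 negative. Feeder fibroblast markers had medians of 0.25, 0.28, 0.03 and -0.23, trophectoderm markers -0.04, -0.18, -0.26 and -0.23, and neural markers 0.08, -0.05, -0.11 and 0.11. None of these cell type lists had both Cy5 arrays below both Cy3 arrays. Besides endoderm, the formative list and the methyl-CpG readers did, the readers with medians of -0.20, 0.02, -0.097 and -0.090 on replicates 1 to 4. Of all single genes, 39.2% had orientations that did not overlap, in either direction. At an unadjusted limma p under 0.05, 2 of 13 ES cell markers and 2 of 15 fibroblast markers were higher, against 1.71% of all genes. The ES cell markers were Nanog and Lin28a, the same genes as the higher ones of the Dnmt3 regulator and TET regulator lists. At the same threshold 3 of 12 trophectoderm markers were lower, against 2.05% of all genes, and 0 of 7 neural markers passed.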

How the data were processed

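The authors deposited 1 log ratio per feature for each of 4 Agilent 2-colour arrays, read here as log2 ratios. The labels give the dyes, 0.2 µg of RNA per channel and an RNA integrity number of 9. Background correction and normalization were not stated in the sources used here, channel intensities were not analysed here, and the number of arrays limits the precision. A platform annotation of 2016 gave the gene names: 33649 of 45214 features had 1 symbol, 56 several and 11509 none, and the last 2 kinds were left out. No symbol needed updating through gene identifiers. Features were averaged per gene and array. All 19083 genes were fitted with limma 3.58.1 in R 4.3.3 (lmFit, eBayes) with an shFmr1 and a dye coefficient, and p-values were adjusted over all genes (Benjamini-Hochberg, threshold 0.05). The fit was also run on simulated ratios with independent noise, and the outcome is not given here. Means carry the SD of the 4 arrays.

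The genes and lists were chosen with earlier results of these data known, so a list's direction is no independent evidence. Of 235 listed symbols 218 were measured. Genes named are the 8, Fmr1, the gene with the smallest p in each direction of each list of related genes, and the 4 genes nearest to each of Dnmt3b and Dnmt3l. Myc within its list, Nanog, Bhmt, Gata6, Cubn, Ttr, Pim2, Snrpn within its list and, in the closing section, Krt19 and Hamp2 were named after their values were seen. Alternatives were no dye term, median centring, scaled arrays, quantile normalization, the median over features, 1 feature per gene, single features, robust eBayes, leaving out features beyond 2 on a single array, an adjusted p of 0.1, and leaving out each array.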

Additional observations from a re-analysis of the deposited data

Results flagged for a closer look

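In 3 of 69 sets of 4 values, for genes, features and list medians, 1 array lay apart from the other 3 by Dixon's criterion, where chance gives about 1 in 20, or 3.45. The median of the 5 methyltransferase and UHRF1 genes was -0.20 on replicate 3 and between 0.08 and 0.12 on the others. The methyl donor and one-carbon list had a median of 0.10 on replicate 4 and between -0.08 and -0.06 on the others. Ccne2, a cyclin of S phase entry, read 0.45 on replicate 2 and between -0.37 and -0.24 on the others. Dnmt3b and Dnmt3l did not meet the criterion, since their arrays fall into pairs. Neither did Tet1, whose values are spread more evenly.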

How the results depend on the processing

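Dnmt3b, Dnmt3l, Dnmt1 and Uhrf1 kept their sign under each of the 16 alternatives run, from -0.65 to -0.12, -0.51 to -0.13, 0.04 to 0.08 and 0.005 to 0.16, with limma adjusted p from 0.489 up. The dye effects of Dnmt3b, Dnmt3l and Tet1 kept theirs under the 11 that allow a dye term (-0.74 to -0.48, -0.56 to -0.47 and 0.20 to 0.37). Some alternatives could not move a coefficient of Dnmt3b, Dnmt3l, Dnmt1 or Tet1, which have 1 feature each. These were the median over features, 1 feature per gene, robust eBayes and leaving out features beyond 2 on 1 array. With all arrays kept, dropping the dye term could not move an shFmr1 coefficient either, because the orientations are balanced. The number of the 8 with an unadjusted limma p under 0.05 for shFmr1 was 0 with no dye term and 0 to 2 with an array left out. For the dye effect, the fit of single features counts features and not genes, and 4 of the 15 were under that p. They were the features of Dnmt3b, Dnmt3l and Tet1 and the second feature of Tet3. The share over all features is not given here. Genes called over the whole table numbered 0 to 87 with an array left out, 2 with quantile normalization (Fmr1 and Krt19) and 3 without features beyond 2 on 1 array (Fmr1, Krt19 and Hamp2), none of the 8, and the cause was not tested. When 1 array was dropped but the dye term stayed, the spread came from a single pair of arrays. With an array left out Dnmt3a ran from -0.0753 to 0.0851, Tet1 from -0.143 to 0.142, Tet2 from -0.142 to 0.0758 and Tet3 from -0.164 to 0.0667. Other reversals were Dnmt3a (-0.0157) and Tet2 (0.0213) with the median over features and Tet3 (0.0784) with 1 feature per gene, where features of a gene differ in sign. Each array holds both RNAs as 1 ratio, so the tests of the ratios against 0 already compare the RNAs within an array.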
